A study of Mus musculus with 12 samples.

Results

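The genes described here are the nuclear genes of the mitochondrial respiratory chain. They were taken from the deposited count table by symbol: names that begin with Nduf for complex I, Sdha to Sdhd for complex II, names that begin with Uqcr for complex III, Cox4 to Cox8 for complex IV, and names that begin with Atp5 for complex V. The rule found 95 of 22298 rows. Complex I had 39 rows besides 8 assembly factors (symbols with Ndufaf), complex II had 4, complex III had 8, complex IV had 18 and complex V had 18. A low-count filter left 85 of the 95 for testing, and every count below is of these 85 or of the tested rows in 1 complex. The 10 rows that did not pass held between 0 and 46 counts over all 12 libraries. They were Ndufa11b, Ndufa4l2, Cox4i2, Cox6a2, Cox6b2, Cox7a1, Cox7b2, Cox8b, Cox8c and Atp5c1-ps, most of them isoforms of other tissues or pseudogene copies.

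RNA was sequenced from 4T1 cells, a line from a BALB/c mammary tumour that stands in for triple-negative breast cancer. Cells carried a control guide RNA to Rosa26, Cop1 sgRNA1 or Cop1 sgRNA2, and were given either vehicle or the cytokine interferon gamma (IFNγ, 20 ng/ml, 24 hours). Each of the 6 groups had 2 libraries, with totals of 19378070 to 32609717 counts. The design compares transcription with and without targeting of Cop1, the gene of an E3 ubiquitin ligase, at rest and under IFNγ. The labels do not say whether the edited populations were clones or pools, or whether the replicates came from separate cultures. The p-values therefore reflect library-to-library spread alone, which may be technical. Cop1 RNA was 94.0 ± 5.998 CPM (counts scaled to library size; SD, n = 2) in Rosa26 vehicle cells, 61.1 ± 2.83 for sgRNA1 and 34.6 ± 0.204 for sgRNA2, so the transcript was lower but present in both edited populations. With IFNγ the levels were 81.9 ± 2.07, 60.4 ± 0.388 and 32.95 ± 0.935. Of 6 epithelial markers, 3 were higher and 1 lower after Cop1 loss in vehicle, 3 and 2 under IFNγ, and 0 and 5 with IFNγ in Rosa26 cells. Epcam rose by 0.30 and 0.39 on the log2 scale after Cop1 loss while Cdh1 fell by 0.48 and 0.29, and the list summed to 2184.3 to 3142.8 CPM a library. Of 10 leukocyte markers 3 were tested and 2 were lower after Cop1 loss in each treatment, Cd14 (12.3 to 21.5 CPM a library) and Cd68 (6.25 to 12.3 CPM). The list summed to 20.5 to 33.4 CPM, Ptprc was at 0.260 CPM or less, and Cd3e, Adgre1 and Nkg7 had no counts. Any part of these markers in the members' changes was not tested. One library stood apart. The counts of the 2 libraries of Cop1 sgRNA2 vehicle differed by a chi-square of 4.21 per degree of freedom over 11963 genes, against 2.33 to 2.72 in the other groups, and replicate 1 of that group was the highest of all 12 libraries for 31 of the 85 genes.

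The respiratory chain passes electrons from NADH (complex I) and succinate (complex II) through complex III to complex IV, which reduces oxygen, and complex V, the ATP synthase, makes ATP from the proton gradient so formed. Most subunits are encoded in the nucleus. Complexes I, III, IV and V also hold subunits encoded in mitochondrial DNA, so the 2 genomes contribute to the same assemblies. In proliferating cancer cells the chain also regenerates the electron acceptors that nucleotide and aspartate synthesis need. Promoters of these genes are classically described as sites for NRF1, for the ETS factor GABP and for YY1.

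In the mean over guides, Ndufa11, Uqcrh, Atp5g1 and Atp5g3 were higher after Cop1 loss with and without IFNγ. Sdha and Cox8a were lower in both treatments. Promoter sequences are shown for these 6 genes, which the results below turn on. Each is the coding-strand sequence from RefSeq (GRCm38.p6), 5′ to 3′, of up to 250 bases before the annotated start. Bases that lie inside the GENCODE M21 gene model were left out. Capitals mark matches on either strand to GCGCA, any base, GCGC (NRF1), CCGGAAG (ETS), AANATGGCG (YY1) or CCAAT (the CCAAT box).
Ndufa11, chr17:56717512-56717761, plus strand: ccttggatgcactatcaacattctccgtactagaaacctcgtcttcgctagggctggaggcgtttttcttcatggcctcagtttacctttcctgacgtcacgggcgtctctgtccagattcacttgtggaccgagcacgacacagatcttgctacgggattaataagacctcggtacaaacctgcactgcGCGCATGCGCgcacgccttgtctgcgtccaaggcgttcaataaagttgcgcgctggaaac
Uqcrh, chr4:116075072-116075320, minus strand: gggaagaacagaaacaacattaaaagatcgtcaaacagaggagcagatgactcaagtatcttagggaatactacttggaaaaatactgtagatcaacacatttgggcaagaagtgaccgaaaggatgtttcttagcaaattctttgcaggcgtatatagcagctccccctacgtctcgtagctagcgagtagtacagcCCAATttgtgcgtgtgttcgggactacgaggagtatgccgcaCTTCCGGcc
Atp5g1, chr11:96075671-96075881, minus strand: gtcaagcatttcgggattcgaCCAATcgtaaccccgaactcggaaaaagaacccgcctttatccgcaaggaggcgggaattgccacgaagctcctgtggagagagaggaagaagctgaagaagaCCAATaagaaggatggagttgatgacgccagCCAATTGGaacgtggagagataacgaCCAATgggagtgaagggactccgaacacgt
Atp5g3, chr2:73911327-73911576, minus strand: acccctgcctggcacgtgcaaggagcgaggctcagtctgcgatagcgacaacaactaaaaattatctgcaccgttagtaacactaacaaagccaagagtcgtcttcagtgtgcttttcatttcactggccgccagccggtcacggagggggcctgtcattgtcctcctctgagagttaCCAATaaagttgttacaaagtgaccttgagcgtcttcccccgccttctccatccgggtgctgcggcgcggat
Sdha, chr13:74350281-74350490, minus strand: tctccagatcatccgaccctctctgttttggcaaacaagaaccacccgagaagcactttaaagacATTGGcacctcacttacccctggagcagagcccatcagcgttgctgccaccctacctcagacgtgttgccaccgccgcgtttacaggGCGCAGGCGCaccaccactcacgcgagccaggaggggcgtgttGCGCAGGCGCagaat
Cox8a, chr19:7217617-7217866, minus strand: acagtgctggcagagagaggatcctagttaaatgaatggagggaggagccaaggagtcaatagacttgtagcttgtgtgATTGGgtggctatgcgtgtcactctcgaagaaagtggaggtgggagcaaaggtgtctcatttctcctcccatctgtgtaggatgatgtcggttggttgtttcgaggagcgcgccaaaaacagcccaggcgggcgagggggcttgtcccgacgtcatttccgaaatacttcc
The NRF1 match of Ndufa11 begins 60 bases before the start, and Sdha has 2, beginning 98 and 55 bases before it. Uqcrh has an ETS match beginning 10 bases and a CCAAT box beginning 52 bases before its start. The Atp5g1 stretch holds 5 CCAAT matches, 2 of which overlap on opposite strands in the palindrome CCAATTGG. The CCAAT boxes of Atp5g3 and Cox8a begin 72 and 171 bases before the start. Matches that reach past the start are not marked in the printed stretches, 1 of NRF1 in Atp5g3 and 2 of ETS in Cox8a, but are counted in the shares that follow. Over windows of 300 bases (250 before and 50 after the start) NRF1 letters were present in 25% of the 76 members with a RefSeq promoter and in 7.17% of 17492 protein-coding genes. The shares were 23.7% and 12.9% for ETS, 14.5% and 3.64% for YY1, and 44.7% and 42.3% for CCAAT. Of the 31 members with a promoter that were higher after Cop1 loss in either treatment, 10 (32.3%) held the NRF1 letters, 7 (22.6%) ETS, 7 (22.6%) YY1 and 11 (35.5%) CCAAT. Of the 41 other tested members, 9 (22%), 11 (26.8%), 4 (9.76%) and 20 (48.8%) did. These are descriptions of letters in a window, not of bound sites.

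The members differed widely in level. On a per-length scale in Rosa26 vehicle cells (CPM per kb of exon), Cox8a at 595.7 and Cox6a1 at 531 (complex IV), and Atp5b at 505.5, the catalytic beta subunit of the ATP synthase, stood highest. The 8 complex I assembly factors lay between 5.83 (Ndufaf3) and 22.4 (Ndufaf8), below most structural subunits of the same complex (for example Ndufb3 at 73.0). Of the isoform pairs, the ubiquitous form carried the counts: Cox4i1, Cox6a1, Cox7a2 and Cox8a were abundant, while their tissue-restricted partners Cox4i2, Cox6a2, Cox7a1 and Cox8b had 12, 28, 46 and 1 counts in all. All members together made up 1.104% to 1.247% of a library. Near-identical copies limit some rows: 11 members have over 20% of their transcript at 97% identity or more in another annotated gene, among them Ndufs3, Atp5h, Uqcrb, Atp5l and Ndufs5, and how the authors treated such reads is not given in the sources used here. Of the members with low counts, Atp5l (1796 over 12 libraries) has such copies, Ndufb2 (350) has none, and Atp5o (1854) was not matched to the annotation.

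Cop1 loss in vehicle-treated cells was set against Rosa26, with Cop1 loss taken as the mean of both guides. Of the 85 genes, 25 were higher and 5 lower at an adjusted p under 0.05 (edgeR's quasi-likelihood test, Benjamini-Hochberg over 11904 genes). Over all genes tested, 35.8% were called, 16.6% higher and 19.2% lower. The members' median log2 change was 0.05, against -0.01 over all genes. The changes were small: 6 of the 30 calls exceeded 1.2-fold and none of the members exceeded 1.5-fold. Complex I held 14 of the higher calls and 2 of the lower, among 37 tested. Complex III had 3 higher of 8, complex V 4 higher of 17, the Ndufaf factors 2 higher of 8, complex IV 2 higher and 2 lower of 11, and complex II 1 lower of 4.

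**Figure D1:**
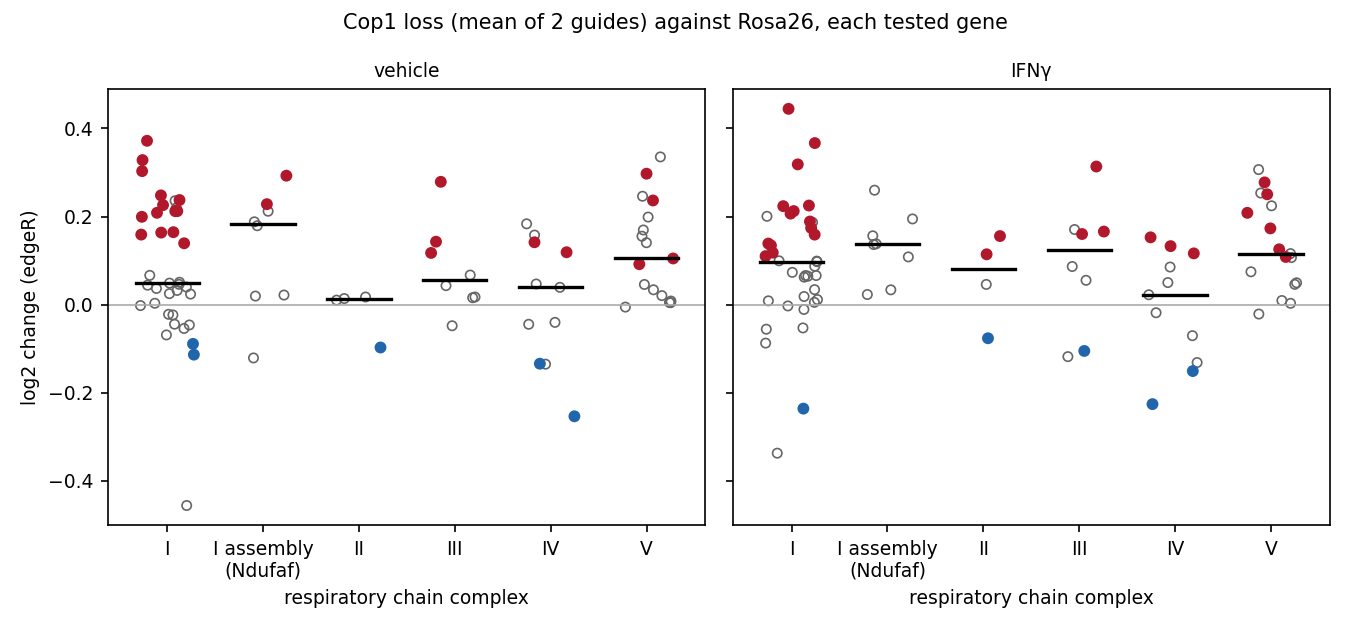
Log2 change after Cop1 loss (y axis) of each tested gene, by complex (x axis), in vehicle (left) and under IFNγ (right); filled points passed the test (red higher, blue lower), open points did not, and bars are medians. Of 85 genes, 25 were higher and 5 lower in vehicle, and 28 and 5 under IFNγ; Cox8a is the lowest filled point of complex IV in both panels.

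Under IFNγ the same contrast gave 28 higher and 5 lower members, against 40.6% of all genes called, 19.8% higher and 20.7% lower. Median log2 changes were 0.10 for the members and -0.00450 for all genes. Complex I again had the most calls (14 higher, 1 lower), followed by complex V (6 higher, none lower), complex III (3 higher, 1 lower), complex IV (3 higher, 2 lower) and complex II (2 higher, 1 lower), while none of the 8 Ndufaf factors was called. Vehicle and IFNγ comparisons share no libraries. Of the members, 17 were higher in both, which is 68% of the vehicle calls and 60.7% of the IFNγ calls, and 4 were lower in both (80% of each list). Over all genes the corresponding shares were 71.8% and 60% for higher genes, and 66% and 61.1% for lower genes. No member was called in opposite directions.

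Complex I subunits gave the largest rises. Ndufb7, an accessory subunit of the membrane arm (chr8:83566671-83571626, plus strand, GRCm38, 3 exons), was measured at 75.9 and 78.4 CPM in the Rosa26 vehicle libraries, 101 and 103 with sgRNA1, and 100.2 and 95.6 with sgRNA2. Under IFNγ the pairs were 64.5 and 73.5, 101 and 96.7, and 84.9 and 93.1. All Cop1-loss libraries lay above both Rosa26 libraries of the same treatment. The log2 change was 0.37 ± 0.0472 (SE) in vehicle (edgeR adjusted p = 2.22e-08) and 0.44 ± 0.0484 under IFNγ (adjusted p = 4.53e-10). Ndufb7 under IFNγ was the 1 member called against a null of 1.2-fold.

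Ndufa11, a membrane-arm subunit that helps hold complex I together (chr17:56717767-56722141), had 18.5 and 21.3 CPM in Rosa26 vehicle cells, 22.8 and 25.8 with sgRNA1, and 27.5 and 24.1 with sgRNA2. Under IFNγ it had 16.0 and 20.3, 23.0 and 24.1, and 24.3 and 22.006. Again no Cop1-loss library fell within the Rosa26 range of its treatment. The log2 changes were 0.33 ± 0.0884 (adjusted p = 0.003) and 0.37 ± 0.0908 (adjusted p = 0.00108). Ndufc2, a small membrane-arm subunit, rose by 0.25 ± 0.0567 and 0.32 ± 0.0578 on the log2 scale. Ndufv2, an iron-sulfur subunit of the NADH-oxidising module, rose by 0.21 ± 0.0373 and 0.22 ± 0.0379, and Ndufb10 by 0.24 ± 0.0548 and 0.23 ± 0.0567. These are means over guides. Under IFNγ Ndufb10 had 51.9 and 48.3 CPM in Rosa26 cells, 64.0 and 64.7 with sgRNA1, and 52.2 and 54.6 with sgRNA2. Ndufab1, the mitochondrial acyl carrier protein, was called in vehicle only (0.30 ± 0.0885, adjusted p = 0.00605), with 0.19 ± 0.0898 under IFNγ, a difference between treatments that did not pass its own test (adjusted p = 0.7).

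Not all complex I subunits moved this way. Ndufs1, the largest iron-sulfur subunit, fell by 0.11 ± 0.0388 on the log2 scale in vehicle (adjusted p = 0.0193) and gave -0.06 under IFNγ without passing the test. Ndufs8 and Ndufs7, core iron-sulfur subunits, were higher under IFNγ (0.19 and 0.14) and not called in vehicle (0.05 and 0.04). Ndufb2 had the most negative estimates (-0.46 and -0.34), from 0.797 to 1.78 CPM a library, and did not pass the test (adjusted p = 0.316 and 0.468).

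Of the complex I assembly factors, Ndufaf2 rose by 0.29 ± 0.0786 in vehicle (adjusted p = 0.00289), from 23.4 and 20.1 CPM in Rosa26 cells to 27.6 and 24.9 with sgRNA1 and 26.9 and 27.0 with sgRNA2. Ndufaf4 rose by 0.23 ± 0.0632 (adjusted p = 0.00386), from 30.1 and 28.7 CPM to 34.2 and 33.5 and to 35.1 in both sgRNA2 libraries. Under IFNγ neither was called (0.03 and 0.14). For Ndufaf2, 65.6% of exon bases overlap the gene B230220B15Rik, and whether counting used strand is not given in the sources used here. Among 9 complex I assembly factors outside the Ndufaf series, none was called in vehicle and 2 were lower under IFNγ.

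In complex II, 1 of 4 genes was called in vehicle and 3 under IFNγ. Sdha, the flavoprotein that oxidises succinate, had 237 and 235 CPM in Rosa26 vehicle cells, 223 in both sgRNA1 libraries, and 209 and 229.7 with sgRNA2. Under IFNγ the sgRNA1 libraries (214 and 217 CPM) lay within the Rosa26 range (213 to 221). With sgRNA2 and IFNγ, Sdha had 198 and 195 CPM. Its log2 changes were -0.09 ± 0.0310 in vehicle (adjusted p = 0.0143) and -0.08 ± 0.0314 under IFNγ (adjusted p = 0.0495). The call under IFNγ was lost on leaving out any 1 of the 6 libraries compared. Sdhb, the iron-sulfur subunit, was not called in either treatment (0.01 and 0.05). The membrane anchors Sdhc and Sdhd gave 0.02 and 0.01 in vehicle and were called higher under IFNγ, by 0.16 ± 0.0374 and 0.11 ± 0.0331.

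In complex III, Uqcrb, a small subunit near the quinone-reduction site, had 43.2 and 40.1 CPM in Rosa26 vehicle libraries, 48.4 and 48.7 with sgRNA1, and 59.2 and 46.5 with sgRNA2. The rise was 0.28 ± 0.0691 in vehicle (adjusted p = 0.00175) and 0.31 ± 0.0710 under IFNγ (adjusted p = 0.000584), and 62.8% of its transcript lies in near-identical copies. Uqcrh, the hinge protein that assists the cytochrome c1 contact, rose by 0.14 ± 0.0404 and 0.16 ± 0.0421, and the core protein Uqcrc2 by 0.12 ± 0.0408 and 0.17 ± 0.0414. Uqcrq was lower under IFNγ (-0.10 ± 0.0420, adjusted p = 0.0479), with 182 and 168 CPM in Rosa26 cells against 170.1, 157, 162 and 161 in Cop1-loss cells, so the groups overlapped.

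Complex IV had calls in both directions, as all genes did. In vehicle 18.2% of its genes were higher and 18.2% lower, against 16.6% and 19.2% of all genes. Under IFNγ the shares were 27.3% and 18.2%, against 19.8% and 20.7%. Cox8a, the smallest subunit (chr19:7215153-7217616, minus strand, 2 exons), had 375 and 363 CPM in Rosa26 vehicle cells, 323 and 305 with sgRNA1, and 307 and 303 with sgRNA2. Under IFNγ it had 379 and 348, 331 and 319.8, and 288 and 306. Every Cop1-loss library was below both Rosa26 libraries of its treatment, and the log2 changes were -0.25 ± 0.0311 (adjusted p = 1.85e-08) and -0.23 ± 0.0312 (adjusted p = 1.8e-07). Cox7a2l, which takes part in joining complexes III and IV into supercomplexes, fell by 0.13 ± 0.0316 and by 0.15 ± 0.0321 on the log2 scale. In the other direction, Cox4i1, the nuclear subunit that binds ATP, rose by 0.12 ± 0.0285 and 0.12 ± 0.0287. Cox6b1, which joins the monomers, rose by 0.14 ± 0.0373 and 0.15 ± 0.0382. These rises are means over guides. Under IFNγ, complex IV had 3 higher and 2 lower calls for sgRNA1 alone, but 0 and 3 for sgRNA2 alone. The sgRNA2 IFNγ libraries overlapped Rosa26 for Cox4i1 (339 and 365 CPM against 333 and 341). For Cox6b1 they did not (114 and 122 against 113 and 109). Cox6a1 gave -0.13 in both treatments and did not pass the test (adjusted p = 0.0637 and 0.0663).

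Complex V calls were all on the higher side in the mean over guides. Under IFNγ, sgRNA1 alone gave 6 higher and 0 lower of 17. With sgRNA2 alone there were 3 and 1 (17.6% and 5.88%, against 16.6% and 16.2% of all genes). Mouse cells have 3 genes for the c subunit of the rotating membrane ring, which encode the same mature protein. Atp5g1 had 104 and 97.7 CPM in Rosa26 vehicle libraries, 127 and 125 with sgRNA1, and 126 and 118 with sgRNA2. Atp5g3 had 283 and 277, 329 and 329, and 336 and 325. For both genes each Cop1-loss library exceeded both Rosa26 libraries. Atp5g1 rose by 0.30 ± 0.0431 (adjusted p = 3.77e-07) in vehicle and 0.21 ± 0.0434 (adjusted p = 0.000135) under IFNγ, and Atp5g3 by 0.24 ± 0.0307 (adjusted p = 3.66e-08) and 0.25 ± 0.0310 (adjusted p = 9.99e-09). Atp5g2 had similar estimates with a wider error (0.25 ± 0.0896, adjusted p = 0.0705, and 0.28 ± 0.0907, adjusted p = 0.0442). Atp5a1, the alpha subunit, rose by 0.09 and 0.13, and the beta subunit Atp5b, the member with the most counts at 2063 to 2193 CPM in vehicle, gave -0.01 and -0.02.

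**Figure D2:**
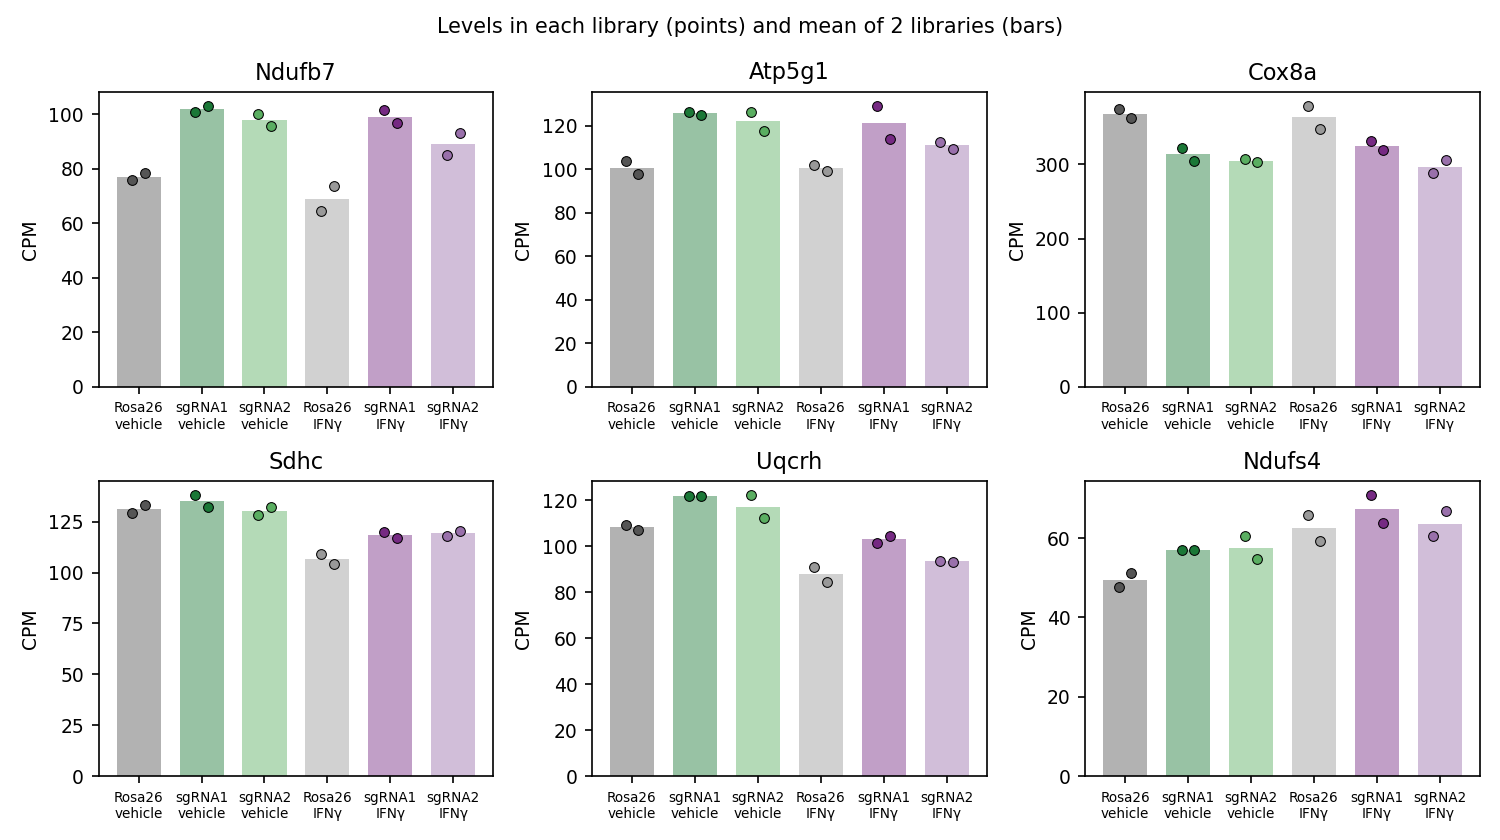
CPM (y axis, from 0) of 6 genes in each library (points) with the mean of 2 libraries (bars), by guide and treatment (x axis). Ndufb7 and Atp5g1 are higher, and Cox8a lower, in every Cop1-loss library than in the Rosa26 libraries of the same treatment; Sdhc and Uqcrh are lower with IFNγ in Rosa26 cells and Ndufs4 is higher.

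The counts rest on small shifts and on few libraries. Leaving out Rosa26 vehicle replicate 2 left 13 higher members in vehicle, and leaving out Rosa26 IFNγ replicate 2 left 14 under IFNγ; without scaling beyond total counts the IFNγ split was 17 higher and 10 lower, and the median of complex IV turned to -0.02. Without Cop1 sgRNA2 vehicle replicate 1 the vehicle counts were 23 and 4, with 24 of the 30 calls kept. With the libraries of each population summed, so that the spread came from the 2 Cop1 guides alone and Rosa26 had 1 sum per treatment, Ndufb7 and Atp5g1 remained called in vehicle, and Ndufb7, Ndufa11, Ndufc2, Ndufv2, Atp5g2 and Atp5g3 (all higher) under IFNγ.

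Other groups of genes moved in the same comparisons. Cytosolic ribosomal protein genes were higher in 60 of 77 in vehicle and 58 of 77 under IFNγ (medians 0.26 and 0.27), and their summed level was 54229 to 56380 CPM as a mean in the Rosa26 groups and 63655 to 66818 in the Cop1-loss groups. Mitochondrial ribosomal protein genes were higher in 25 and lower in 2 of 77 in vehicle, and 16 and 7 under IFNγ. With the cytosolic ribosomal protein genes taken out before scaling, an alternative chosen after seeing the data, 25 members were higher and 5 lower in vehicle, and 28 and 4 under IFNγ. Any part of these groups in the members' changes was otherwise not tested. Glycolysis genes gave 1 higher and 10 lower of 20 in vehicle, and 1 and 6 under IFNγ. The guides differed in this list: 13 of the 20 were lower in sgRNA2 than in sgRNA1 cells in vehicle and 11 under IFNγ, and none higher. Against Rosa26, sgRNA1 gave 2 higher and 4 lower in vehicle and 3 and 4 under IFNγ, and sgRNA2 gave 0 and 12 in each treatment. Cycs, the electron carrier cytochrome c, rose by 0.18 ± 0.0348 and 0.16 ± 0.0342, while the complex IV assembly factor Surf1 fell by 0.21 and 0.47 on the log2 scale.

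Regulators of these genes did not move as 1 group. Of 18 genes listed as regulators of mitochondrial biogenesis, 2 were higher and 6 lower in vehicle, and 3 and 6 under IFNγ. The transcription factor Nrf1 had log2 changes of -0.19 ± 0.0516 and -0.28 ± 0.0512. Hcfc1, another gene of the same list, had -0.28 and -0.20. Gabpb1, a partner subunit of GABP, rose by 0.30 and 0.27, and Tfam, a transcription factor that binds mitochondrial DNA, by 0.15 and 0.25. Yy1 and Gabpa were not called in either treatment.

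Part of the chain was lower with IFNγ in Rosa26 cells. Against vehicle, 22 of 85 members were lower and 4 higher, while 32.8% of all genes were called, 16.2% lower and 16.6% higher. The members' median log2 change was -0.08 and that of all genes -0.00848. Lower calls numbered 9 of 37 in complex I, 3 of 4 in complex II, 1 of 8 in complex III, 2 of 11 in complex IV, 6 of 17 in complex V and 1 of 8 Ndufaf factors. Ndufs4, Ndufaf2 and Uqcrq were among the higher calls. In Cop1-loss cells, averaged over the guides, 21 members were lower and 2 higher (16.1% and 18.1% of all genes, 34.2% in all), with a median of -0.07. There, 10 of the lower calls were in complex I, 6 in complex V, 2 each in complexes II and IV, and 1 in complex III. These comparisons share their libraries with the comparisons of Cop1 loss in vehicle and under IFNγ.

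**Figure D3:**
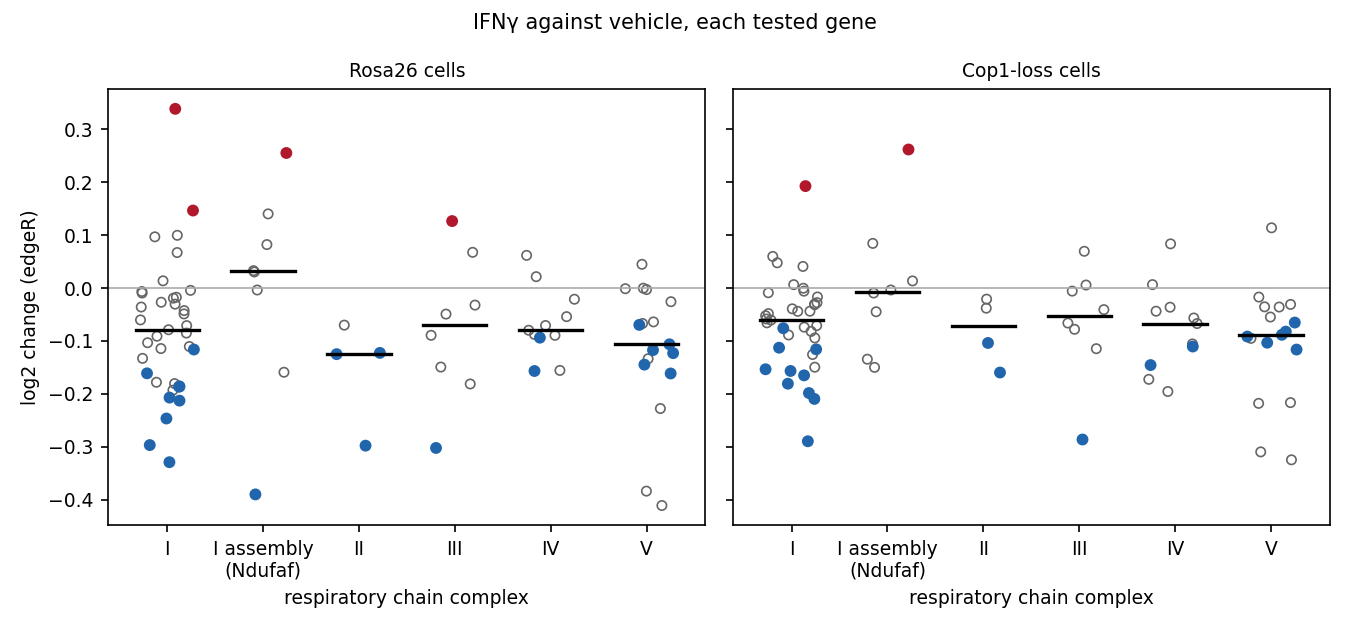
Log2 change with IFNγ against vehicle (y axis) of each tested gene, by complex (x axis), in Rosa26 cells (left) and Cop1-loss cells (right); filled points passed the test (red higher, blue lower), open points did not, and bars are medians. Of 85 genes, 22 were lower and 4 higher in Rosa26 cells, and 21 and 2 in Cop1-loss cells; Ndufs4 is the highest filled point of complex I in both.

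Ndufb3, a membrane-arm subunit of complex I (chr1:58586384-58595964), had 55.9 and 55.6 CPM in Rosa26 vehicle libraries and 47.1 and 41.6 with IFNγ. In sgRNA1 cells it went from 54.8 and 56.5 to 50.6 and 45.9, and in sgRNA2 cells from 62.0 and 53.9 to 46.5 and 42.5. All 6 IFNγ libraries lay below all 6 vehicle libraries. The log2 change was -0.33 ± 0.0691 in Rosa26 cells (adjusted p = 0.000189) and -0.29 ± 0.0487 in Cop1-loss cells (adjusted p = 4.97e-06). Ndufb11, another membrane-arm subunit, fell by 0.30 ± 0.0744 and by 0.16 ± 0.0517, and Ndufa4, named with complex I although its product is now placed in complex IV, by 0.21 ± 0.0405 and by 0.15 ± 0.0285. Ndufs8 was called lower in Rosa26 cells (-0.19 ± 0.0552) and gave -0.04 in Cop1-loss cells, a difference that did not pass its test (adjusted p = 0.24).

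Ndufs4, a matrix-arm subunit whose loss causes Leigh-like disease in mice, moved the other way. It had 47.7 and 51.2 CPM in Rosa26 vehicle libraries and 65.7 and 59.3 with IFNγ, 57.1 and 57.0 against 70.8 and 63.9 with sgRNA1, and 60.4 and 54.7 against 60.6 and 66.8 with sgRNA2. IFNγ libraries lay above the vehicle libraries of the same guide. The log2 change was 0.34 ± 0.0653 (adjusted p = 5.45e-05) in Rosa26 cells and 0.19 ± 0.0453 (adjusted p = 0.000682) in Cop1-loss cells. Among assembly factors, Ndufaf2 rose by 0.26 ± 0.0905 and Ndufaf3 fell by 0.39 ± 0.151 on the log2 scale in Rosa26 cells (adjusted p = 0.0261 and 0.0422). Ndufaf3 had 12.2 and 8.99 CPM in vehicle against 8.11 and 8.09. In Cop1-loss cells Ndufaf5 was the single assembly factor called (0.26 ± 0.0827, adjusted p = 0.0111).

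Complex II was lower in all but 1 of its genes in Rosa26 cells. Sdhc, a membrane anchor that carries part of the quinone site (chr1:171127165-171150603), had 129 and 133 CPM in vehicle and 109 and 104 with IFNγ. With sgRNA1 it had 138 and 132 against 119.8 and 117, and with sgRNA2 128 and 132 against 118 and 121. No IFNγ library reached the vehicle range. It fell by 0.30 ± 0.0425 on the log2 scale in Rosa26 cells (adjusted p = 2.5e-07) and by 0.16 ± 0.0298 in Cop1-loss cells (adjusted p = 2.82e-05), and the difference between these responses, 0.14 ± 0.0519, did not pass its test (adjusted p = 0.116). Sdha fell by 0.12 ± 0.0360 and 0.10 ± 0.0257. Sdhd fell by 0.12 ± 0.0380 in Rosa26 cells and gave -0.02 in Cop1-loss cells, and Sdhb was called in neither (-0.07 and -0.04).

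In complex III, Uqcrh (chr4:116066965-116075071) was the 1 lower call of 8 in Rosa26 cells and in Cop1-loss cells. This share, 12.5% in each, was below the 16.2% and 16.1% of all genes, and Uqcrq was called higher in Rosa26 cells. Uqcrh had 109 and 107 CPM in Rosa26 vehicle libraries against 91.0 and 84.4 with IFNγ. The sgRNA1 pairs were 122 and 122 against 101 and 105, and the sgRNA2 pairs 122 and 112 against 93.5 and 93.1. Every IFNγ library was below every vehicle library. The log2 change was -0.30 ± 0.0478 in Rosa26 cells (adjusted p = 1.88e-06) and -0.28 ± 0.0332 in Cop1-loss cells (adjusted p = 1.96e-09). In complex IV, Cox6b1 (-0.16 ± 0.0437 and -0.15 ± 0.0305) and Cox7a2l (-0.09 ± 0.0367 and -0.11 ± 0.0264) passed the test with either genotype, and Cox8a in neither (-0.02 and 0.01). In complex V the peripheral stalk gene Atp5j gave -0.16 ± 0.0482 and -0.12 ± 0.0340, Atp5j2 -0.14 ± 0.0412 and -0.08 ± 0.0290, and Atp5g3 -0.12 ± 0.0356 and -0.10 ± 0.0248. The Cop1-loss values are means over guides. Taken singly, sgRNA1 cells had 0 lower of 17 in complex V (9.98% of all genes) and sgRNA2 cells 7 (11% of all genes). Atp5j2 had means of 228.9 CPM in vehicle and 226.2 with IFNγ in sgRNA1 cells, and 212.1 and 191.6 in sgRNA2 cells. Cycs rose with IFNγ (0.25 ± 0.0399 and 0.23 ± 0.0278).

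In Rosa26 cells 7 lower members were left without Rosa26 vehicle replicate 1 and 9 without Rosa26 IFNγ replicate 2. In Cop1-loss cells 40 members were lower without Cop1 sgRNA2 vehicle replicate 2, that is with the library that stood apart as the lone vehicle library of its guide, and 15 without replicate 1. With libraries of a population summed, Ndufb3 and Uqcrh were called in Cop1-loss cells. For Rosa26 cells that fit sets 1 sum against 1 and takes its spread from the Cop1 guides alone, so its calls are no check on the Rosa26 response.

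The difference between the IFNγ responses of Cop1-loss and Rosa26 cells was called for 1 of the 85 members, on the lower side. Among all genes, 5.74% were called in this test, 2.36% lower and 3.38% higher. For the other 84 members the difference was not detected, with estimates from -0.26 to 0.24 and a median standard error of 0.0787, so differences of the size of the responses themselves could go undetected.

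The guides were compared as a check on Cop1 loss. In vehicle, sgRNA2 differed from sgRNA1 in 1 member, Atp5b (-0.07 ± 0.0220, adjusted p = 0.0418), with none higher (3.41% and 2.58% of all genes, 5.99% in all). Under IFNγ 14 members were lower in sgRNA2 cells and none higher, against 4.33% and 5.07% of all genes (9.41% in all), and the members' median log2 difference was -0.10. The 14 were Ndufa4, Ndufb10, Ndufv1, Ndufaf2, Sdha, Cox4i1, Cox6b1, Cox7a2, Cox8a, Atp5b, Atp5c1, Atp5h, Atp5j and Atp5j2. Ndufb10 had 64.0 and 64.7 CPM in sgRNA1 cells, against 52.2 and 54.6 in sgRNA2 cells (-0.27 ± 0.0644, adjusted p = 0.00434). Atp5j2, a membrane-sector subunit of the ATP synthase, had 230.4 and 222 against 182 and 201 (-0.24 ± 0.0413, adjusted p = 0.000117). In both genes the guides did not overlap.

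Taken guide by guide against the same Rosa26 libraries, which the comparisons share, sgRNA1 gave 23 higher and 2 lower members in vehicle (15.8% and 17.5% of all genes, 33.4% in all) and 33 and 3 under IFNγ (18.9% and 19.3%, 38.2% in all). With sgRNA2 there were 18 higher and 5 lower in vehicle (13.5% and 15.7%, 29.2% in all) and 13 and 6 under IFNγ (16.6% and 16.2%, 32.9% in all). IFNγ against vehicle gave 2 higher and 5 lower members in sgRNA1 cells (12.5% and 9.98% of all genes, 22.5% in all) and 0 higher and 20 lower in sgRNA2 cells (14.2% and 11%, 25.3% in all). Whether the guides differ in that response was not tested. Ndufb7 was higher with each guide in each treatment, by 0.40 and 0.34 in vehicle and by 0.52 and 0.37 under IFNγ for sgRNA1 and sgRNA2. Cox8a was lower with each guide in each treatment (-0.23 and -0.28 in vehicle, -0.16 and -0.29 under IFNγ). The summed level of complex IV in single libraries spanned 87.2% to 102% of the Rosa26 vehicle mean, and its lowest library was sgRNA2 IFNγ replicate 1. Without that library 1 member was lower in the guide comparison under IFNγ, and 2 without sgRNA1 IFNγ replicate 1. Over all 11870 genes with an annotated length, the guide difference under IFNγ had a Spearman correlation of 0.246 with exon length. Over 84 members the correlation was 0.0254, a description only, and a part of length in the members' calls was not tested. For Cop1 loss in vehicle the correlations were -0.178 over all genes and -0.0409 over the members. For IFNγ in Cop1-loss cells they were 0.13 and 0.0281.

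**Figure D4:**
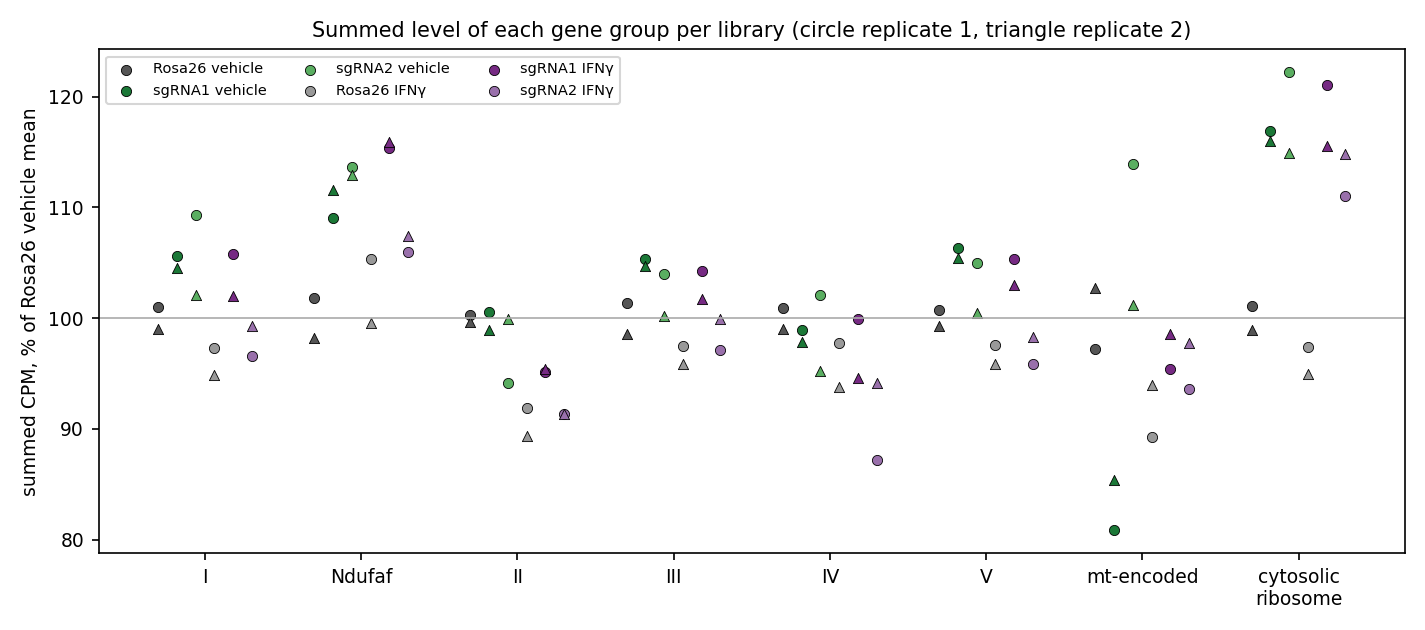
Summed CPM of each gene group in each library as a percentage of the Rosa26 vehicle mean (y axis), by group (x axis), with colours for guide and treatment and circles and triangles for replicates 1 and 2. Complex V reaches 106.3% in sgRNA1 vehicle replicate 1, the mitochondrially encoded genes lie at 80.9% and 85.4% in sgRNA1 vehicle cells and at 113.9% and 101.2% in sgRNA2 vehicle cells, and cytosolic ribosomal protein genes are at 111% to 122% in all Cop1-loss libraries.

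The mitochondrially encoded subunits, which join the nuclear ones in the same complexes, followed a different order. Of 11 tested, none was called after Cop1 loss in vehicle (0 higher and 0 lower) and 1 was higher under IFNγ (mt-Co1, 0.11 ± 0.0306, adjusted p = 0.00591). Some of the 11 rows were near the floor, which limits these counts. In Rosa26 vehicle cells mt-Co2, mt-Co3, mt-Atp6 and mt-Nd3 had means of 3.225, 3.105, 2.519 and 0.8608 CPM. The guides differed in vehicle, where 6 of the 11 were higher in sgRNA2 than in sgRNA1 cells, with a median of 0.46. mt-Co1, the catalytic subunit of complex IV, had a mean of 1521 CPM in Rosa26 vehicle cells, 1312 with sgRNA1 and 1622 with sgRNA2. Any part of this guide difference in the levels of the nuclear genes was not tested.

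The pair of libraries of Cop1 sgRNA2 vehicle differed more in these genes than other pairs. Replicate 1 exceeded replicate 2 by over 1.2-fold in 16 of 85 members and was lower by that margin in 1, whereas 2 to 5 members passed that margin in either direction in the other groups. Atp5k, a membrane-sector subunit of the ATP synthase, had 112 CPM in replicate 1 and 64.7 in replicate 2. Ndufb9 had 93.9 and 62.1, and Cox5a 70.1 and 54.8. These genes were not called after Cop1 loss in vehicle, with Atp5k at 0.34 ± 0.217 (adjusted p = 0.295).

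**Figure D5:**
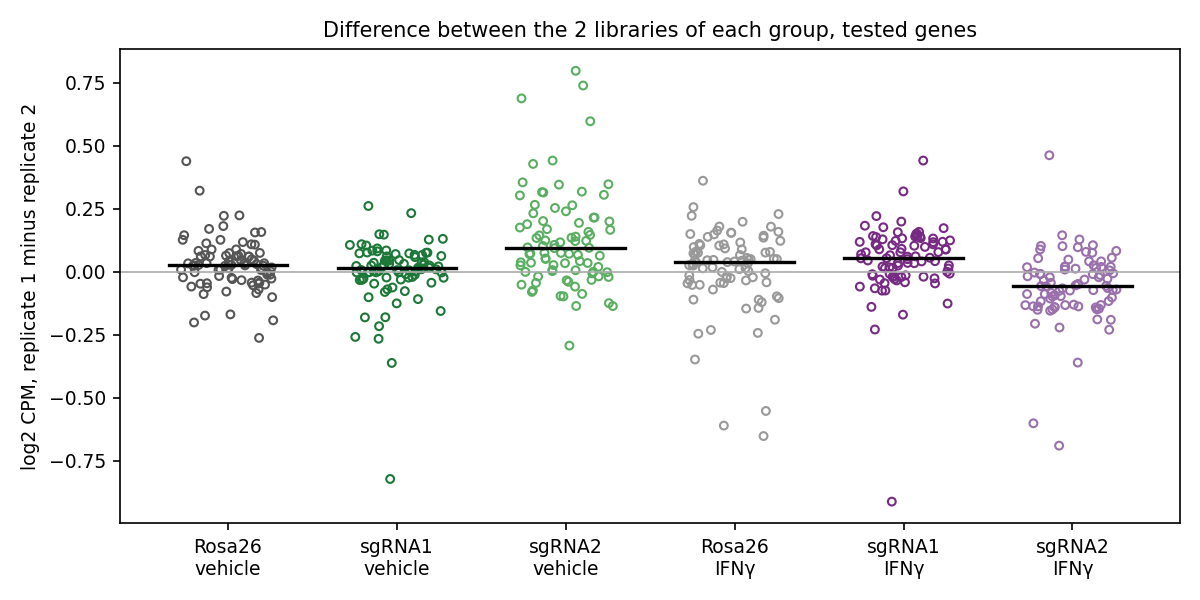
Log2 CPM of replicate 1 minus replicate 2 (y axis) for each tested gene, by group (x axis), with bars at the medians. The spread is wide in sgRNA2 vehicle, where 63 of 85 genes were higher in replicate 1 and the median was 0.09.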

How the data were processed

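Whole-number counts per gene, made by the authors and not normalized, were used as deposited for all 12 libraries, and columns of other samples numbered 0. The submitters' processing notes name STAR 2.4.0, HTSeq, DESeq2 1.10 and mm10. For the annotation, strand setting and multi-mapping reads nothing is given in the sources used here. The row of totals was left out; it exceeded the gene counts in 1 library, by 360.

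Members and gene lists were chosen with earlier results of these data known. All genes were fitted with edgeR 4.0.16 (R 4.3.3): TMM, filterByExpr (minimum count 10, minimum total 15, leaving 11904 genes), 1 mean per group, the quasi-likelihood F test and Benjamini-Hochberg adjustment, called under 0.05. The code was tested on simulated data. Full statistics are given for the largest called rise and fall per complex (mean log2 CPM of at least 3), complex II and isoform sets; other members are named from the same fit. Positions are from GENCODE M21 (94 of 95 members matched) and promoters from RefSeq. Alternatives were other scalings and filters, glmTreat, DESeq2 1.42.0, a replicate block, summed libraries and leaving out each library. Intervals from 2 libraries a group are wide. Some genes are counted but not reported here by name.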

Additional observations from a re-analysis of the deposited data

Results flagged for a closer look

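These 3 genes, none of them a nuclear subunit, were picked by the test of the difference between the IFNγ responses (edgeR, adjusted over all genes). They were the 1 call in each of 3 lists. The lists were complex IV assembly and cytochrome c (20 tested), mitochondrially encoded genes (11) and regulators of mitochondrial biogenesis (18). Over all genes 5.74% were called, so this yield was near the share of all genes. Higd1a, a hypoxia-inducible protein that associates with complex IV, had -0.22 ± 0.0610 (adjusted p = 0.0208). Its response was 0.14 in Rosa26 cells and -0.08 in Cop1-loss cells. Myc, a transcription factor of growth genes, had -0.14 ± 0.0409 (adjusted p = 0.031), from 0.27 and 0.13. The mitochondrially encoded mt-Co1 had 0.17 ± 0.0430 (adjusted p = 0.0205), from -0.05 and 0.13. The 0.13 is a mean over guides that differed. The mt-Co1 means were 1312 CPM in vehicle and 1574 with IFNγ in sgRNA1 cells, but 1622 and 1609 in sgRNA2 cells.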

How the results depend on the processing

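Counts are of members called higher and lower. RLE scaling left 3 lower after Cop1 loss under IFNγ. Upper-quartile scaling gave 2 higher with IFNγ in Rosa26 cells, 41 lower with IFNγ in Cop1-loss cells and 3 lower between guides in vehicle. Without scaling beyond total counts, Cop1 loss under IFNγ gave 17 higher and 10 lower, IFNγ in Cop1-loss cells 36 lower, and the guides in vehicle 0 lower. Scalings moved the median of all genes to at most -0.0541 (upper-quartile). They turned 4 medians of complexes: complex IV between guides in vehicle (-0.00215, and 0.00538 unscaled), complex II after Cop1 loss in vehicle (-0.01 unscaled), complex IV after Cop1 loss under IFNγ (-0.02 unscaled) and the Ndufaf factors with IFNγ in Rosa26 cells (-0.00453, upper-quartile). With no low-count filter there were 1 higher in the difference of responses, 1 higher and 2 lower between guides in vehicle, and 23 lower between guides under IFNγ. A minimum of 50 counts gave 2 lower between guides in vehicle. Against a 1.2-fold null 1 was higher after Cop1 loss under IFNγ (Ndufb7) and 0 were called in each other comparison. Fits of only the groups compared gave 0 lower between guides in vehicle and 24 under IFNγ. DESeq2 gave 2 lower after Cop1 loss in vehicle, 3 under IFNγ, 2 higher and 14 lower with IFNγ in Rosa26 cells, 0 in the difference of responses, and 8 lower between guides under IFNγ.

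Summing libraries, with the spread from the Cop1 guides alone and 1 Rosa26 sum per treatment, gave 2 higher and 0 lower after Cop1 loss in vehicle, 6 and 1 under IFNγ, 1 and 1 with IFNγ in Rosa26 cells, 0 and 2 in Cop1-loss cells, and 0 in the difference of responses. Leaving out each library in turn gave 13 to 33 higher and 2 to 5 lower after Cop1 loss in vehicle, and 14 to 29 and 3 to 6 under IFNγ. With IFNγ it gave 2 to 4 higher and 7 to 17 lower in Rosa26 cells, and 2 to 4 and 14 to 40 in Cop1-loss cells. The difference of responses gave 0 to 1 in each direction, and the guides 0 to 12 higher and 0 to 1 lower in vehicle and 1 to 13 lower under IFNγ. The 12 came without Cop1 sgRNA2 vehicle replicate 2. Without the cytosolic ribosomal protein genes, chosen after seeing the data, 2 were lower between guides in vehicle.

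Replicate numbers only share a number: deviations of same-numbered libraries correlated at -0.0754 to 0.0587 over 9111 genes. Over the members alone the correlations ran from -0.376 to 0.59, with both signs among the pairs of groups. With the replicate block, the counts were 26 and 6 after Cop1 loss in vehicle, 28 and 6 under IFNγ, 4 and 23 with IFNγ in Rosa26 cells, 3 and 21 in Cop1-loss cells, 0 and 1 in the difference of responses, and 0 and 1 and then 0 and 18 between guides in vehicle and under IFNγ. No call changed sign in any of these settings. With 2 libraries a group, differences near the standard errors given cannot be detected.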
